A study of Mus musculus with 9 samples.

Results

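The genes described here are 10 that encode HMGB and S100 proteins, chosen by name: Hmgb1, Hmgb2 and Hmgb3, and S100a1, S100a4, S100a6, S100a10, S100a11, S100a13 and S100a16. They are 10 of the 55416 genes in the count tables, and all 10 were among the 13439 genes that passed the filter on low counts. RNA was sequenced from 4T1 cells, a line of mouse mammary carcinoma (strain BALB/c), grown in DMEM. The PBS group had fresh medium alone, the MRC group had medium with MRC nanoparticles, and the MRC+L group had the same nanoparticles and light of 660 nm for 3 min. All groups were kept for 12 h and each had 3 libraries. The irradiance is printed as 180, with mW/cm2 in one label field and mV/cm2 in another, and MRC is not spelled out. Light without nanoparticles was not analysed here. The labels do not tie the libraries to separate cultures, so p-values cover the spread among these libraries alone, which may be technical.

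HMGB proteins are abundant chromatin proteins that bend DNA, and Hmgb1 is best known outside the nucleus, where released protein acts as a danger signal on the receptor RAGE (gene Ager) and on Toll-like receptors. S100 proteins are small calcium-binding proteins that act as dimers, most of them inside the cell, and several leave stressed or damaged cells and reach some of the same receptors. Neither group needs new transcription to be released, and what was measured here is RNA, not protein and not release.

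The libraries held 15019765 to 20044166 counts, so 3 counts, the limit that a count of 0 allows, corresponded to 0.150 to 0.200 CPM (counts scaled to the size of each library). PBS replicate 2 stood apart from the other libraries along gene length. Its genes with under 1500 exon bases lay at a median of 0.61 above their mean over the 9 libraries on the log2 scale and those with 5000 or more at -0.36, against -0.14 to 0.08 for short genes in the other 8 libraries. As 6 of the 10 genes are under 1500 bases, the changes of the 10 genes against PBS are given with and without that library. The epithelial keratin genes Krt8 and Krt18 were high in every library, while the epithelial genes Epcam and Cdh1 were low, with 0 to 5 and 33 to 99 counts. The summed level of 6 mammary carcinoma markers was 974 to 1735 CPM in PBS, 544 to 578 CPM in MRC and 485 to 502 CPM in MRC+L. Krt8 and Krt18 held most of this sum. Krt14 went the other way, with means of 0.255 CPM in PBS, 1.79 in MRC and 1.43 in MRC+L. It had 2 to 7 counts in PBS and 22 to 36 elsewhere, and Krt19 had 4 to 51 counts per library. The sum of 10 leukocyte markers was 8.67 to 15.7 CPM in PBS, 18.3 to 24.4 in MRC and 19.6 to 21.2 in MRC+L, with the defining markers Cd3e and Adgre1 at 0 counts in all libraries. Ptprc, the pan-leukocyte marker, had 0 counts in PBS and 0 to 3 elsewhere, and Csf1r had 0 to 2 in PBS and 4 to 16 elsewhere. Cd68, a lysosomal protein gene of macrophages and other cells, held most of the leukocyte sum (7.05 to 11.8 CPM in PBS, 16.6 to 22.2 in MRC) and rose by 1.04 in MRC (adjusted p = 0.00195 by edgeR). That of 8 fibroblast and endothelial markers was 46.5 to 83.5, 80.5 to 97.5 and 77.3 to 88.3 CPM, with Dcn at 0 in PBS and MRC+L. Of these, Pdgfra (29.6 to 85.2 CPM over the 9 libraries) rose by 0.80 in MRC (adjusted p = 0.0107 by edgeR) and Pdgfrb fell (-1.47, 0.000996). Pecam1 was at 1.87 in MRC (adjusted p = 0.0298 by edgeR), with 2 to 15 counts per library. It passed the filter on low counts only because of libraries with nanoparticles, so its call is not independent of the filter. The part of these marker changes in the results below was not tested. CPM values are shares of a library, so a smaller share of cells that hold an RNA and less of that RNA per cell cannot be told apart.

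All 10 genes were lower in cells with nanoparticles than in medium alone. S100a4 passed the filter on low counts only because of its PBS libraries, so the counts of calls are given over the other 9 genes, with all 10 beside them. In MRC against PBS, 9 of 9 (10 of 10) fell at an adjusted p under 0.05 (quasi-likelihood test of edgeR, Benjamini-Hochberg over 13439 genes), where 19.8% of all tested genes were called lower. The median log2 fold change of the 9 was -1.05, beside -0.03 over all tested genes. In MRC+L against PBS, again 9 of 9 (10 of 10) fell, where 24.5% of all tested genes were called lower, and the median of the 9 was -1.25. Both comparisons use the same PBS libraries. The 3 PBS values lay above all 3 MRC values for each of the 9 genes, a separation seen for 24.2% of all tested genes. They lay above all 3 MRC+L values likewise, where the share was 28.1%. S100a4 was separated in the same way, but the filter favoured that outcome for it. Without PBS replicate 2 the median of the 9 was -0.60 in MRC with 8 of 9 called lower, where 26% of all genes were, and -0.87 in MRC+L with 9 of 9 called, where 28.3% were. The number called in MRC was 5 when MRC replicate 1 was left out, where 13.6% of all genes were called lower, and 5 when MRC replicate 2 was left out, where 14.7% were. In both cases these were the 3 HMGB genes with S100a10 and S100a11.

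**Figure D1:**
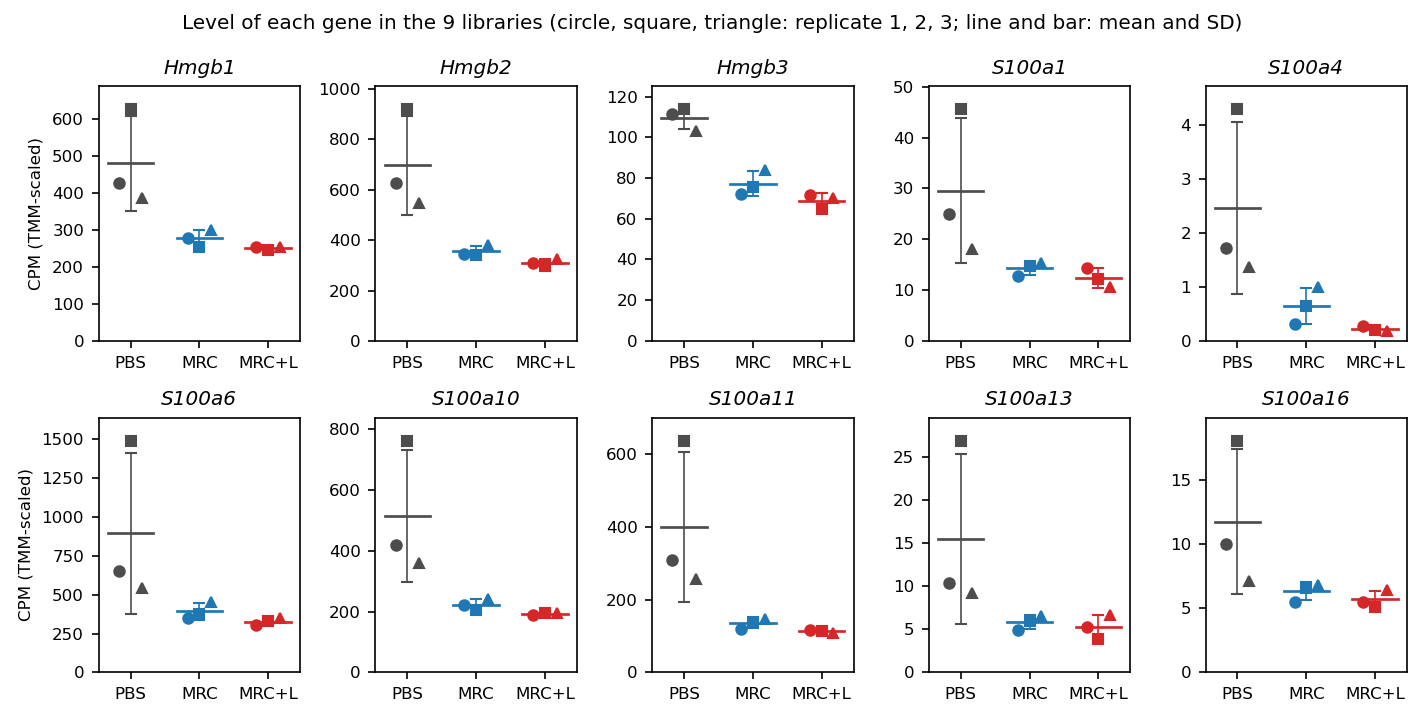
Level of the 10 genes in each of the 9 libraries, in CPM on linear axes that start at 0, with 1 panel per gene; circles, squares and triangles are replicates 1, 2 and 3, and the line and bar are the mean and SD of 3 libraries. Every PBS point lies above every MRC and MRC+L point of its panel, and PBS replicate 2 (square) is the highest point in all 10 panels.

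Of the HMGB genes, Hmgb1 and Hmgb2 were high and Hmgb3, whose protein is best known from embryonic and blood stem cells, was lower. The promoter windows are shown because each of the 3 genes has a window with repeated CCAAT, the motif bound by NF-Y. A link between this motif and the fall of the genes was not tested. Each window runs from 250 bases before to 50 bases after a RefSeq start on GRCm38.p6, and is printed 5′ to 3′ in the direction of the gene. Capitals mark CCAAT or GGGCGG (the GC box bound by Sp1 factors), both searched on both strands. The windows are chr5:149053008-149053307 (minus strand) for Hmgb1, chr8:57511593-57511892 (plus strand) for Hmgb2 and chrX:71555667-71555966 (plus strand) for Hmgb3.
Hmgb1: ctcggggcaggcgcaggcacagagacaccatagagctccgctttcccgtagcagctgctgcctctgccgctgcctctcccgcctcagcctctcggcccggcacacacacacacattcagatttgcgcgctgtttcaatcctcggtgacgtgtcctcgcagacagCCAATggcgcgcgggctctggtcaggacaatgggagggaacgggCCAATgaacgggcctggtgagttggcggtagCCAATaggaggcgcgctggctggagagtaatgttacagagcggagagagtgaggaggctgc
Hmgb2: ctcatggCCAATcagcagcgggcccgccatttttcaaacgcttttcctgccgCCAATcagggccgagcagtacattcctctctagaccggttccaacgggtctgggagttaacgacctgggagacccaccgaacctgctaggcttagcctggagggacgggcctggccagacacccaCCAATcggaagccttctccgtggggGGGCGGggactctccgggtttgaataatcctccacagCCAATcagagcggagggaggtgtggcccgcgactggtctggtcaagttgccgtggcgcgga
Hmgb3: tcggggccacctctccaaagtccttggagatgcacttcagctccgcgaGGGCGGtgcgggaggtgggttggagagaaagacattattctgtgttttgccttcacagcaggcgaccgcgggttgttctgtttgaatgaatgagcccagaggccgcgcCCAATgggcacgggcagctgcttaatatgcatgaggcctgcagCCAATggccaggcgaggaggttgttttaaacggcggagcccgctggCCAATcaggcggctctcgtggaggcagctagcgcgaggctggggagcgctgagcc
CCAAT matched 3 times in the Hmgb1 window, with first bases 86, 42 and 11 bases before the start, which are listed as -86, -42 and -11. In Hmgb2 it matched 4 times, at -243, -198, -73 and -11, and in Hmgb3 3 times, at -94, -51 and -5. No 2 of these matches overlap. At least 1 CCAAT was held by 37.4% of 32851 RefSeq windows of this length, and 3 or more by 3.37%. GGGCGG, held by 35.7% of windows, matched once in Hmgb2 and once in Hmgb3. A second RefSeq window of Hmgb1, at chr5:149051567-149051866, had no CCAAT and 4 matches of GGGCGG. Of the S100 windows, that of S100a6 had 1 match of CCAAT and the others had none, though the S100 genes fell as well. The counts are summed over a gene and do not say which start was used. These matches are letters in the reference and no binding was measured.

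Hmgb1 (GRCm39, chromosome 5, 148983512 to 149121299, minus strand) stood at 426.9, 625.8 and 386.5 CPM in PBS, at 276.7, 254.7 and 300.5 in MRC, and at 254.8, 245.2 and 253.5 in MRC+L. The PBS libraries were all higher, and the MRC and MRC+L ranges overlapped. Hmgb1 fell by 0.79 ± 0.17 (SE) on the log2 scale in MRC (1.73-fold, adjusted p = 0.00460 by edgeR) and by 0.93 ± 0.17 in MRC+L (1.91-fold, adjusted p = 0.00149). Of its exon sequence, 17.9% of windows of 75 bases also occur in transcripts of 84 other annotated genes. Reads that fit several places were not counted, so its level is uncertain.

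Hmgb2 (GRCm39, chromosome 8, 57964941 to 57969033, plus strand), which is known for its high level in dividing cells, had 624.8, 919.6 and 547.5 CPM in PBS. It had 346.6, 342.5 and 380.9 in MRC and 310.9, 299.2 and 323.3 in MRC+L, so the 3 groups did not overlap. It fell by 0.97 ± 0.17 in MRC (1.96-fold, adjusted p = 0.00180 by edgeR) and by 1.16 ± 0.17 in MRC+L (2.24-fold, adjusted p = 0.000492). Hmgb3 (GRCm39, chromosome X, 70599524 to 70604282, plus strand) had 111.3, 113.8 and 103.2 CPM in PBS, 72.3, 75.3 and 84.0 in MRC, and 71.5, 65.0 and 70.3 in MRC+L. Its PBS libraries were close together and all above the others. It fell by 0.50 ± 0.10 in MRC (1.42-fold, adjusted p = 0.00305 by edgeR) and by 0.67 ± 0.10 in MRC+L (1.59-fold, adjusted p = 0.000472). Sequence shared with other genes took 17.5% of windows in Hmgb2 and 17.5% in Hmgb3. PBS replicate 2 was 1.54 times the mean of the other PBS libraries for Hmgb1, 1.57 times for Hmgb2 and 1.06 times for Hmgb3. Without it the log2 changes in MRC were -0.56 for Hmgb1, -0.72 for Hmgb2 and -0.48 for Hmgb3, and in MRC+L they were -0.70, -0.91 and -0.64. All 3 genes kept an adjusted p under 0.05 by edgeR in both comparisons.

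S100a10 and S100a11 are the S100 proteins best known as partners of annexins, S100a10 with annexin A2 at the cell surface and S100a11 with annexin A1. S100a10 (GRCm39, chromosome 3, 93462387 to 93471950, plus strand) had 417.6, 761.8 and 360.1 CPM in PBS, 221.8, 203.7 and 241.1 in MRC, and 189.6, 194.7 and 194.3 in MRC+L. The groups did not overlap. S100a10 fell by 1.21 ± 0.24 in MRC (2.31-fold, adjusted p = 0.00307 by edgeR) and by 1.41 ± 0.24 in MRC+L (2.66-fold, adjusted p = 0.00103). S100a11 (GRCm39, chromosome 3, 93427795 to 93433594, plus strand) had 308.5, 636.7 and 256.9 CPM in PBS, 119.6, 137.7 and 147.5 in MRC, and 117.9, 114.0 and 109.6 in MRC+L. Again no MRC library reached the lowest PBS library, and no MRC+L library the lowest MRC library. S100a11 fell by 1.57 ± 0.29 in MRC (2.97-fold, adjusted p = 0.00193 by edgeR) and by 1.82 ± 0.29 in MRC+L (3.52-fold, adjusted p = 0.000688). These 2 genes kept their calls without any single library, and without PBS replicate 2 they were 1.76-fold and 2.10-fold lower in MRC, and 2.02-fold and 2.48-fold lower in MRC+L. For S100a11, 37.8% of windows of 75 bases recur in transcripts of Gm12854 or Gm7665, so part of its reads may not have been counted.

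The S100a11 promoter is printed because S100a11 was the most lowered of the abundant S100 genes in MRC, and it holds 2 kinds of motif more than once. The window is chr3:93520246-93520545 (plus strand) on GRCm38.p6, and capitals mark TGANTCA (N is any base; the form TGAGTCA is bound by AP-1) or GGGCGG, on both strands and without overlap.
S100a11: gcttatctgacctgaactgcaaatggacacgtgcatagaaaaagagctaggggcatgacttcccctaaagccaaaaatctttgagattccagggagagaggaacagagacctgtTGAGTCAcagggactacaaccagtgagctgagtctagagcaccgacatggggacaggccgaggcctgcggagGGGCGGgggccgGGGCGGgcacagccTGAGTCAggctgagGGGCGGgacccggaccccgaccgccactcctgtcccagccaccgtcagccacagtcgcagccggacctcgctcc
TGAGTCA stood at -136 and -38, and GGGCGG at -64, -52 and -24. TGANTCA was held by 7.81% of all windows. These matches are letters in the reference and no binding was measured.

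S100a6, also called calcyclin and induced by growth factors, was the most variable of the abundant genes. S100a6 (GRCm39, chromosome 3, 90520189 to 90531488, plus strand) had 650.2, 1491 and 541.2 CPM in PBS, 349.2, 377.9 and 454.1 in MRC, and 305.2, 328.1 and 348.4 in MRC+L. PBS replicate 2 was 2.50 times the mean of the other PBS libraries, and those were still above all MRC libraries. S100a6 fell by 1.18 ± 0.32 in MRC (2.27-fold, adjusted p = 0.0155 by edgeR) and by 1.45 ± 0.32 in MRC+L (2.73-fold, adjusted p = 0.00472). Without PBS replicate 2 the change was 1.52-fold in MRC and 1.82-fold in MRC+L, both with an adjusted p under 0.05. The call in MRC was lost without MRC replicate 1 (adjusted p = 0.0680) and without MRC replicate 2 (adjusted p = 0.0599).

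S100a1, known for its role with the calcium pumps and channels of muscle, and S100a13, which takes part in the export of FGF1, lie head to head. S100a1 (GRCm39, chromosome 3, 90418341 to 90421699) is on the minus strand and S100a13 (90421742 to 90431888) on the plus strand, with their starts 43 bases apart. The RefSeq starts differ from these Ensembl starts, and the 2 RefSeq promoter windows share 204 bases. The S100a13 window, chr3:90514185-90514484 (plus strand) on GRCm38.p6, is printed because its last 204 bases also lie in the S100a1 window. None of the motifs searched was found in it, so it has no capitals.
S100a13: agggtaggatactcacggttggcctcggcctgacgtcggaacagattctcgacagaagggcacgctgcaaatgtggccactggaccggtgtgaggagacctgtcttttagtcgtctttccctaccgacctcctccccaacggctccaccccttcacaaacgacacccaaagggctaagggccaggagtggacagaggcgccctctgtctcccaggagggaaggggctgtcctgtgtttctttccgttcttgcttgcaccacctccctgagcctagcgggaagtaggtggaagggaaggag
S100a1 had 24.9, 45.6 and 18.2 CPM in PBS, 12.7, 14.8 and 15.3 in MRC, and 14.4, 12.3 and 10.6 in MRC+L. S100a13 had 10.3, 26.9 and 9.21 CPM in PBS, 4.94, 5.94 and 6.55 in MRC, and 5.24, 3.88 and 6.69 in MRC+L. In both genes the PBS libraries were highest, PBS replicate 2 most of all, and the MRC and MRC+L ranges overlapped. S100a1 fell by 1.05 ± 0.29 in MRC (2.07-fold, adjusted p = 0.0168 by edgeR) and by 1.25 ± 0.29 in MRC+L (2.38-fold, adjusted p = 0.00612). S100a13 fell by 1.41 ± 0.39 in MRC (2.65-fold, adjusted p = 0.0169 by edgeR) and by 1.55 ± 0.39 in MRC+L (2.93-fold, adjusted p = 0.00929). Without PBS replicate 2 the folds in MRC were 1.52 for S100a1 and 1.68 for S100a13, and in MRC+L 1.74 and 1.85, all called. Both lost the call in MRC without MRC replicate 1 (adjusted p = 0.0708 for S100a1 and 0.0708 for S100a13) and without MRC replicate 2 (0.0534 and 0.0564).

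S100a16 and S100a4 had the lowest levels of the 10 per exon length. S100a16 (GRCm39, chromosome 3, 90444561 to 90450458, plus strand), a widely expressed member with little known of its release, had 9.98, 18.1 and 7.16 CPM in PBS, 5.51, 6.58 and 6.84 in MRC, and 5.51, 5.09 and 6.45 in MRC+L. The lowest PBS library was 1.05 times the highest MRC library. S100a16 fell by 0.89 ± 0.30 in MRC (1.86-fold, adjusted p = 0.0380 by edgeR) and by 1.04 ± 0.30 in MRC+L (2.06-fold, adjusted p = 0.0169). The fold without PBS replicate 2 was 1.36 in MRC and 1.51 in MRC+L. Its call in MRC was lost without PBS replicate 1 (adjusted p = 0.0505) or 2 (0.0536), without any of the MRC replicates (0.128, 0.0917 and 0.0766 for 1, 2 and 3) and without any of the MRC+L replicates (0.0579, 0.0558 and 0.0546). In MRC+L it was lost without MRC+L replicate 1 (0.0550) or 2 (0.0628).

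S100a4, also called metastasin and known from metastatic mammary tumours, was near the detection limit. S100a4 (GRCm39, chromosome 3, 90511078 to 90513352, plus strand) had 33, 73 and 22 counts in PBS, 5, 11 and 20 in MRC, and 5, 3 and 3 in MRC+L. In CPM these were 1.72, 4.29 and 1.37 in PBS, 0.317, 0.641 and 0.992 in MRC, and 0.270, 0.201 and 0.177 in MRC+L. The groups did not overlap, and the gene passed the filter on low counts only because of PBS, so its calls are not independent of the filter and are not used as support. Its fitted log2 change was -1.88 ± 0.52 in MRC and -3.45 ± 0.61 in MRC+L. From the summed counts of 128 in PBS, 36 in MRC and 11 in MRC+L, the level was 3.62-fold lower in MRC (95% exact interval 2.48 to 5.39) and 11.2-fold lower in MRC+L (6.06 to 23.0). These intervals cover counting error only. Without PBS replicate 2 the fitted fold was 2.33 in MRC and 6.93 in MRC+L. Of its 584 exon bases, 302 (51.7%) overlap Gm42674 on the same strand, and reads in the overlap may not have been assigned to either gene, so its level is uncertain. The S100a4 promoter window had TATAA, the letters of a TATA box and held by 24.9% of windows, 31 bases before the start.

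**Figure D2:**
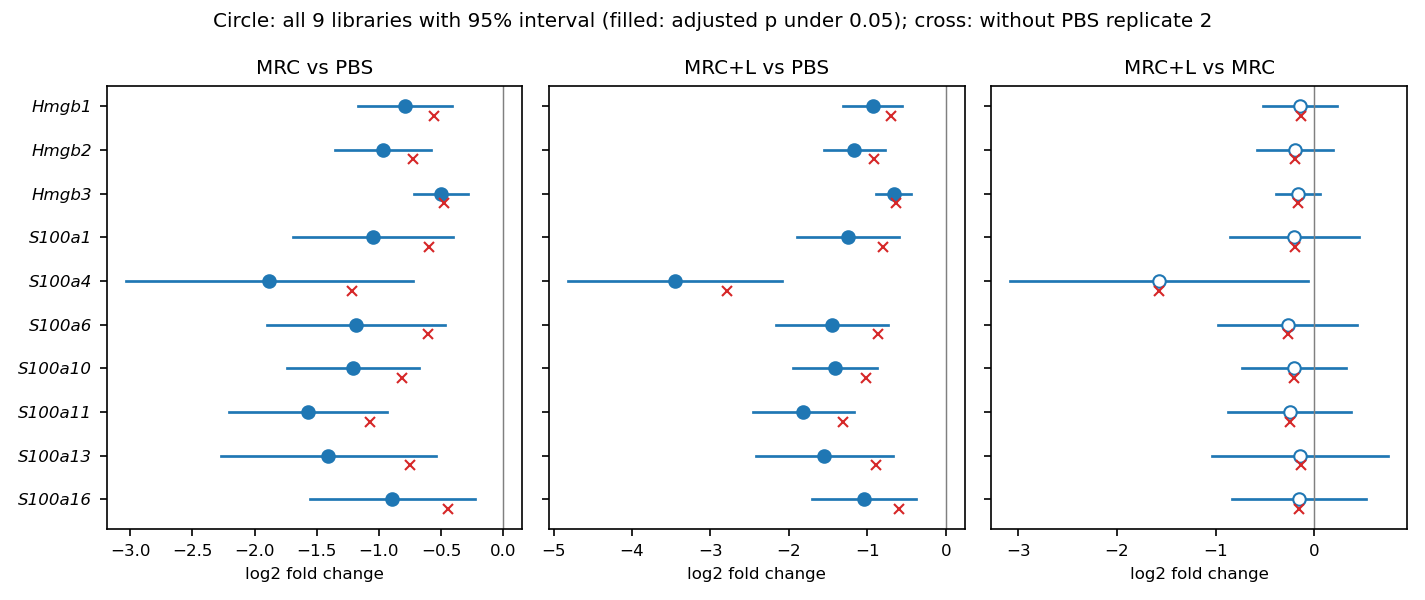
Log2 fold change of the 10 genes (rows) in MRC against PBS, MRC+L against PBS and MRC+L against MRC (panels); circles are the fit on all 9 libraries with the 95% interval, filled where the adjusted p was under 0.05, and crosses are the fit without PBS replicate 2. All circles of the 2 PBS panels are filled and left of 0, the crosses lie closer to 0, and no circle of the MRC+L against MRC panel is filled.

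No further change with light was called for any of the 10 genes. In MRC+L against MRC, 0 of 10 were called by edgeR (adjusted p = 0.988 for each), as were 0% of all tested genes in either direction, while 1 of the 10 genes (S100a4) and 4.26% of all genes had an unadjusted p under 0.05. DESeq2 also called 0 of the 10, and 0.0281% of all genes lower and 0.0375% higher. All 10 point estimates were below 0, as were 52.0% of all tested genes, with a median of -0.20 beside -0.01 over all. For Hmgb1 the difference was -0.14 with a 95% interval from -0.52 to 0.23, for Hmgb2 -0.20 (-0.58 to 0.19) and for Hmgb3 -0.16 (-0.38 to 0.06). For S100a11 it was -0.25 (-0.87 to 0.38) and for S100a6 -0.27 (-0.97 to 0.44). These intervals hold no difference and also falls as large as the lower bounds, so the groups were not shown to be alike. For S100a4 the difference was -1.57 (-3.08 to -0.06), and the summed counts gave a 3.10-fold lower level (95% exact interval 1.54 to 6.76, counting error only). The groups did not overlap for 6 of the 10 (Hmgb2, Hmgb3, S100a4, S100a6, S100a10 and S100a11), a separation in the lower direction that 12.6% of all tested genes had. S100a4 is among these although it passed the filter only because of PBS. It had 5, 11 and 20 counts in MRC and 5, 3 and 3 in MRC+L.

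The PBS libraries set part of the spread used in that comparison. Fitted to the 6 libraries with nanoparticles alone, edgeR still called 0 of the 9 genes that passed the filter there, where 1.91% of genes were called lower and 3.13% higher. S100a4 did not pass. The adjusted p was 0.0528 for S100a6, 0.0557 for S100a11, 0.0773 for Hmgb2 and 0.0802 for S100a10, and 6 of 9 genes had an unadjusted p under 0.05, as had 21% of all genes in that fit. S100a6 was 1.20-fold and S100a11 1.18-fold lower in that fit.

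Levels can be compared between genes only per exon length, as TPM (counts divided by exon length and scaled to a common total), computed from the counts and exon lengths in the files. In PBS the mean level was 2593 ± 904 TPM (SD, n = 3) for S100a11, 2149 ± 896 for S100a6 and 1413 ± 364 for S100a10. Then came Hmgb2 at 786 ± 94.0 TPM, Hmgb1 at 324 ± 34.1, Hmgb3 at 170 ± 18.5 and S100a1 at 141 ± 45.5, and last S100a13 at 70.7 ± 33.6, S100a16 at 24.0 ± 7.75 and S100a4 at 13.8 ± 6.68. Over PBS replicates 1 and 3 alone the order was the same, with means of 2074 TPM for S100a11, 1634 for S100a6, 1204 for S100a10, 733 for Hmgb2, 304 for Hmgb1, 180.3 for Hmgb3, 116 for S100a1, 51.3 for S100a13, 19.8 for S100a16 and 9.92 for S100a4. Neighbours in this order whose ranges overlapped were S100a11 with S100a6, S100a6 with S100a10, Hmgb3 with S100a1, S100a1 with S100a13, and S100a16 with S100a4. With nanoparticles the order was the same except that S100a6 (1047 ± 136 TPM in MRC, 898 ± 42.2 in MRC+L) came before S100a11 (961 ± 105 and 837 ± 46.3), with overlapping ranges. All other neighbours were apart.

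Within each library the ratio of S100a11 to S100a6, in TPM, was 1.27, 1.14 and 1.27 in PBS, 0.916, 0.974 and 0.869 in MRC, and 1.03, 0.930 and 0.842 in MRC+L. The PBS ratios were all higher, PBS replicate 2 included, and the other groups overlapped. The ratio of Hmgb2 to Hmgb1 was 2.45, 2.46 and 2.37 in PBS, 2.10, 2.25 and 2.12 in MRC, and 2.04, 2.04 and 2.13 in MRC+L, again highest in PBS. Both ratios were chosen after their values were seen and carry no test. The 3 HMGB genes together took 1196 to 1403 TPM in PBS, 728 to 802 in MRC and 667 to 712 in MRC+L. The 7 S100 genes took 4862 to 8994, 2517 to 3064 and 2424 to 2457 TPM, so the spread in PBS was wider for the S100 genes.

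All 7 S100 genes lie on chromosome 3, where most of the mouse S100 family is clustered. On GRCm39, 5 of them, from S100a1 to S100a6, fall within 113 kb, and S100a11 and S100a10 follow 2.90 Mb further along, within 44.2 kb of each other. Between 500 kb before and 500 kb after these genes (89918341 to 93971950), 26 genes outside the S100 family were tested. Of these, 3 were called lower and 2 higher in MRC against PBS, with a median log2 change of -0.06, and 5 lower and 4 higher in MRC+L against PBS. The S100 genes lay below most of these neighbours, among which the share called lower was under that of all tested genes. The neighbours lie before S100a1, except Gm5851, Gm9774, Gm4202 and Rplp0-ps1 between S100a6 and S100a11. None lies after S100a10, so they say little about the stretch of S100a11 and S100a10.

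**Figure D3:**
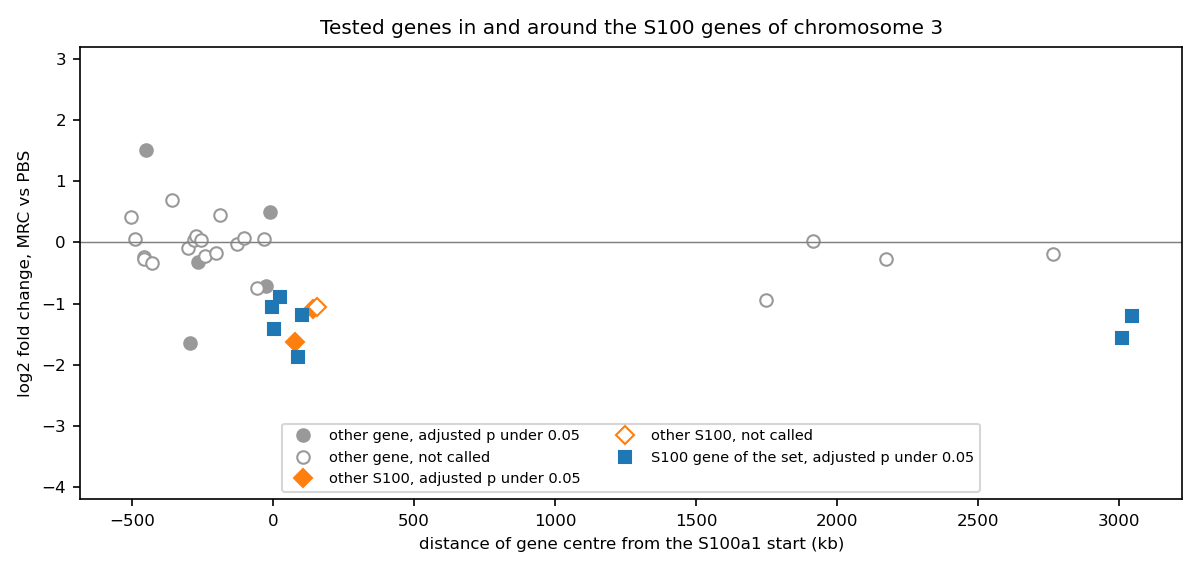
Log2 fold change of tested genes in MRC against PBS (vertical axis) by distance of the gene centre from the S100a1 start in kb (horizontal axis); blue squares are the 7 S100 genes of the set, orange diamonds other S100 genes, grey circles other genes, filled where the adjusted p was under 0.05. The S100 genes lie between -0.89 and -1.88 in both stretches, and most of the grey circles lie near 0.

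The S100 genes of the set are short, from 511 exon bases (S100a11) to 1617 (S100a16), and the HMGB genes longer, from 2234 (Hmgb3) to 5023 (Hmgb1). In MRC against PBS the median log2 change of all tested genes under 1500 bases was -0.21 with all 9 libraries and 0.02 without PBS replicate 2. The share of these short genes called lower was 15.6% and 16.4%. With a smooth trend on length taken out of each library, 9 of the 9 genes without S100a4 were still called lower in MRC, where 23.1% of all genes were, with a median of -0.90. With the trend taken out and PBS replicate 2 also left out, an alternative chosen after seeing the data, 8 of 9 were called. There 3565 of 13747 genes were called lower, and the median of the 9 was -0.62.

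**Figure D4:**
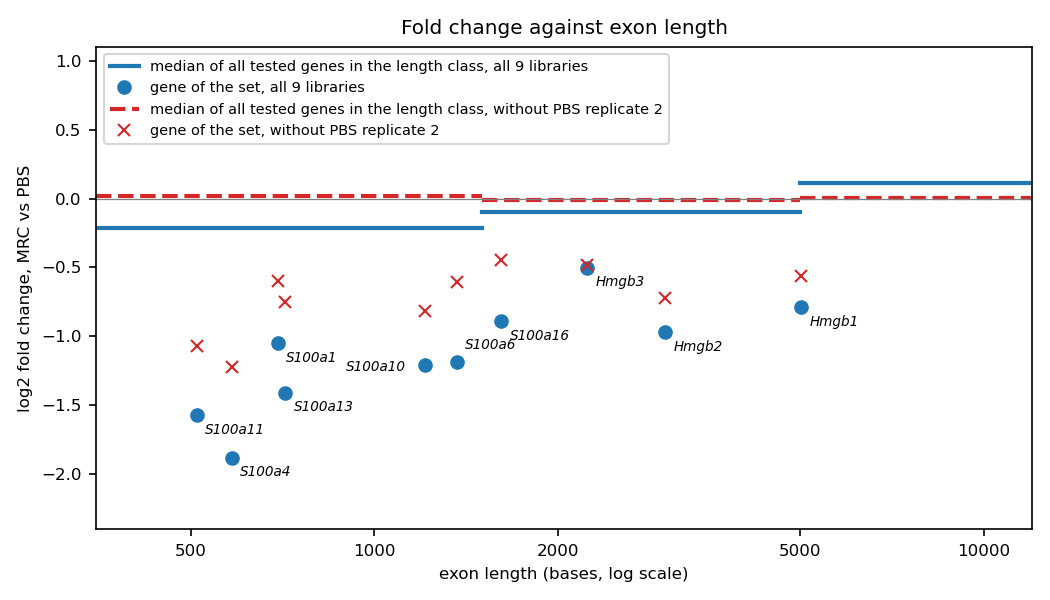
Log2 fold change in MRC against PBS (vertical axis) against exon length in bases (horizontal axis, log scale) for the 10 genes, with all 9 libraries (blue circles) and without PBS replicate 2 (red crosses); horizontal lines are medians of all tested genes in 3 length classes. All 10 circles and all 10 crosses lie below the lines, and the crosses of the S100 genes lie between -0.45 and -1.22.

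Of 13 other genes looked for, which were further S100 family genes and S100pbp, 11 were in the tables and 4 passed the filter. In MRC, 2 of these 4 fell, where 19.8% of all tested genes were called lower. They were S100a3, by 1.63 ± 0.45 (adjusted p = 0.0166 by edgeR), and S100a7a, by 1.09 ± 0.22 (adjusted p = 0.00348). S100a8, a granulocyte and monocyte protein, was at -1.06 (adjusted p = 0.149) and S100pbp, which encodes a binding protein of S100P, at -0.48 (0.0651). In MRC+L 4 of 4 were called lower, where 24.5% of all tested genes were, though the PBS and MRC+L ranges of S100pbp overlapped. Without PBS replicate 2, 3 of 4 were called in MRC, where 26% of all genes were. Without MRC replicate 1 or 2 it was 1 of 4, where 13.6% and 14.7% of all genes were. In MRC+L, 2 of 4 were called without MRC+L replicate 1, where 2654 of 13756 genes were. S100a9, the partner of S100a8, had 0 counts in all libraries but MRC replicate 3, which had 2, and S100a5, S100g and S100z had 0 in all, as had Hmgb4. S100a14 had 1 to 17 counts per library, S100b 0 to 3, and S100a2 had 5 in PBS replicate 2 and 0 in all others.

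Among 16 tested genes of other HMG-box, HMGA and HMGN proteins, 6 fell and 2 rose in MRC (median -0.27). Of all tested genes, 19.8% were called lower and 17.8% higher there. In MRC+L 10 fell and 2 rose, where 24.5% were called lower and 21.8% higher. The nucleosome-binding genes Hmgn5 (-0.93 ± 0.12, adjusted p = 0.000277 by edgeR) and Hmgn2 (-0.55 ± 0.10, 0.00248) fell in MRC. So did the architectural genes Hmga1 (-0.76 ± 0.10, 0.000317) and Hmga2 (-0.62 ± 0.11, 0.00148). The 2 that rose were Hmgxb3 and Tox4, named after their values were seen. The number that fell was 7 in MRC and 10 in MRC+L without PBS replicate 2, where 26% and 28.3% of all genes were called lower. It was 10 in MRC without PBS replicate 3, where 3244 of 13821 genes were called lower. It was 5 to 6 in MRC+L without PBS replicate 1 or any 1 of the MRC+L replicates. In those fits 2476 to 2803 genes of 13756 to 13802 were called lower. The number that rose in MRC was 0 without MRC replicate 1, 1 without MRC replicate 2 and 3 without PBS replicate 3. Of all genes, 1684 of 13858, 1896 of 13870 and 3046 of 13821 were called higher in these fits. In MRC+L 1 rose without MRC+L replicate 2, where 2226 of 13802 genes were called higher.

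Of 15 tested binding partners, 5 fell in MRC, where 19.8% of all tested genes were called lower, and the same 5 fell in MRC+L, where 24.5% were. These were the annexins Anxa6 (-1.20 ± 0.11, adjusted p = 4.26e-05 by edgeR), Anxa5 (-0.93 ± 0.13, 0.000453), Anxa2 (-0.97 ± 0.17, 0.00157) and Anxa1 (-0.87 ± 0.17, 0.00253), and Anp32a (-0.98 ± 0.18, 0.00229), whose protein sits with HMGB2 in the SET complex. Without PBS replicate 2, 8 of 15 fell in each comparison, where 26% of all genes were called lower in MRC and 28.3% in MRC+L. Per length, the ratio of S100a10 to Anxa2 was 1.08, 1.36 and 1.08 in PBS, 1.04, 0.963 and 1.07 in MRC, and 0.972, 1.07 and 1.02 in MRC+L. S100a11 to Anxa1 was 2.82, 4.17 and 2.71 in PBS, 1.76, 2.38 and 2.14 in MRC, and 2.24, 2.08 and 1.93 in MRC+L. Both ratios were higher in every PBS library than in any other. For the first the gap was small, from 1.076 in PBS replicate 3 to 1.070 in MRC+L replicate 2.

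Of 21 receptor and adaptor genes 14 were tested, and 3 fell and 4 rose in MRC, where 19.8% of all tested genes were called lower and 17.8% higher. The receptor gene Tlr2 fell by 0.93 ± 0.12 (adjusted p = 0.000297 by edgeR), the kinase gene Irak4 by 0.55 ± 0.15 (0.0139) and the adaptor gene Myd88 by 0.40 ± 0.11 (0.0162). Traf6, a ubiquitin ligase downstream of them, rose by 0.57 ± 0.18 (0.0279). The others that rose were Cd24a, Ly96 and Ticam1, the last 2 named after their values were seen. In MRC+L again 3 fell and 4 rose, with Irak1, also named after its values were seen, in place of Cd24a, where 24.5% were called lower and 21.8% higher. With upper quartile factors in place of TMM, 4 fell and 1 rose in MRC, and 3 fell and 2 rose in MRC+L. Of 13439 genes, 2874 were called lower and 2224 higher in MRC there, and 3496 and 2723 in MRC+L. The number that rose in MRC was not stable. It was 4 without PBS replicate 2, where 3393 of 13747 genes were called higher. It was 0 to 2 when any other single library was left out, where 1684 to 3046 of all genes were. In MRC+L it was 2 without PBS replicate 1, any 1 MRC replicate or any 1 MRC+L replicate, where 2226 to 2759 were. The number that fell in MRC was 5 without PBS replicate 2 or 3, where 3569 and 3244 of all genes were called lower. It was 2 without MRC replicate 1 or 2, where 1878 and 2039 were. In MRC+L it was 5 without PBS replicate 3, where 3879 were. It was 2 without PBS replicate 1, MRC replicate 3 or any 1 MRC+L replicate, where 2476 to 3061 were. Ager and Tlr4, the receptors most often linked to HMGB1, were likewise named after the fact. Neither was called in any comparison by the fit on all 9 libraries. In single fits with a library left out, Ager was called lower in MRC+L against PBS and Tlr4 in MRC. Ager had 8 to 38 counts per library and Tlr4 was at -0.17 ± 0.23 in MRC (adjusted p = 0.591). With 1 library left out Tlr4 ranged from -0.44 to 0.10 in MRC, with a lowest adjusted p of 0.00342 by edgeR. For Tlr4, PBS replicate 2 was 0.50 times the mean of the other PBS libraries. Cxcr4, another receptor of the list, had 0 counts in all libraries.

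Of 15 tested genes of other danger signals, 6 rose and 2 fell in MRC, where 17.8% of all tested genes were called higher and 19.8% lower, and 8 of the 15 estimates were below 0 (median -0.03). In MRC+L 6 rose and 5 fell, where 21.8% were called higher and 24.5% lower. The heat shock genes Hspa1b (3.22 ± 0.44, adjusted p = 0.000381 by edgeR) and Hsp90aa1 (0.91 ± 0.12, 0.000296) rose in MRC, as did the galectin gene Lgals3 (0.81 ± 0.18, 0.00557), while Cirbp, which encodes a cold-inducible RNA-binding protein, fell (-0.87 ± 0.18, 0.00367). The genes that fell in MRC+L were Cirbp, Il33, Lgals1, Ppia and Prdx2, the last 4 named after their values were seen. Il33 had 8 to 33 counts in PBS, 9 to 17 in MRC and 1 to 3 in MRC+L, and like S100a4 it passed the filter only because of PBS. In MRC+L against MRC, Hspa1b was at 2.38 ± 0.42 (adjusted p = 0.406). Over 18 alternatives its estimate was 2.18 to 2.52 and it was called higher in 7. Its adjusted p ranged from 9.48e-06 to 1.00 with a library left out and from 4.47e-47 to 0.973 otherwise (edgeR, DESeq2 or limma). Hsp90aa1 was called higher in 4 of the 18, with 0.36 to 0.50 over the fits that left out a library. The number that fell in MRC was 3 without PBS replicate 2 and 4 without PBS replicate 3. Of all genes, 3569 and 3244 were called lower in these fits. The number was 1 without PBS replicate 1, any 1 MRC replicate or any 1 MRC+L replicate, where 1878 to 2431 were.

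Proliferation genes moved with the set. Of 19 tested, 18 fell in MRC (median -0.69), where 19.8% of all tested genes were called lower. In MRC+L 19 fell (median -0.87), where 24.5% were. Without PBS replicate 2 all 19 fell in each, where 26% of all genes were called lower in MRC and 28.3% in MRC+L. Tk1 fell by 1.98 ± 0.17 in MRC (adjusted p = 1.92e-05 by edgeR) and Mcm6 by 0.91 ± 0.10 (9.15e-05), both of S phase. Rrm2 fell by 0.73 ± 0.09 (0.000232) and Ccna2 by 0.72 ± 0.10 (0.000489). Whether these changes and the fall of Hmgb2 have a common source was not tested.

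The 10 genes varied together over the 9 libraries. Pearson r between log2 CPM values ranged from 0.844 to 0.998 over the 45 pairs (median 0.953), and from 0.760 to 0.995 over 8 libraries without PBS replicate 2 (median 0.914). The values share libraries, group differences and length-related bias, so r is a description. Among 9737 protein-coding genes of at least 5 CPM, the gene most like Hmgb1 was S100a10 (r = 0.998), followed by Npc2 and Arpc5. For Hmgb2 the closest were Ifitm3 (0.999), Gpx1 and Anxa2, and for Hmgb3 Neurl3 (0.993), Calm3 and Sdc4. For S100a6 they were Cox7a2 (0.998), Myl6 and Cuedc2, for S100a10 Hmgb1, Arpc5 and Ctsl, and for S100a11 Fxyd5 (0.998), Stx4a and Rfc2. For the low genes they were Rhog, Galk1 and Atpaf2 (S100a1), Troap, Cdkn2c and Tspan17 (S100a4), Ifi27l2a, Cops7a and Dnajc19 (S100a13), and Trap1, Eci2 and Ndufaf7 (S100a16).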

How the data were processed

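Each of the 9 libraries of 4T1 cells has a table of raw counts of read pairs that the authors deposited. Counting used featureCounts 2.0.1 in paired mode on exons, added up per gene, without a strand option, and Ensembl release 104 on GRCm39, per the file headers. Reads with several places were not counted. The aligner is not given in the sources used here. Symbols came from GENCODE M21 (GRCm38) by gene ID for 52083 genes (94.0%). Promoter windows of RefSeq on GRCm38.p6 were matched by symbol for 9 of the 10 genes.

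The filter of edgeR (minimum count 10, minimum total 15) kept 13439 genes. In R 4.3.3, edgeR 4.0.16 fitted 1 mean per group over all 9 libraries with TMM factors and its quasi-likelihood test, with limma 3.58.1 and DESeq2 1.42.0 for alternatives. A call is an adjusted p (Benjamini-Hochberg) under 0.05. Prior counts were 2 for log2 CPM and 0.125 for fold changes. The fits were tested on simulated data. Figures used Python 3.11.15, pandas 2.3.3 and matplotlib 3.10.9.

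The 10 genes and the lists were chosen with earlier results of these data known. Named genes are the 10, the other S100 genes of the list that are in the tables, up to 4 genes of each list with the smallest p in MRC against PBS and up to 2 in MRC+L against MRC, the 3 genes most like each of the 10, and those said to be chosen after their values were seen. Replicate numbers do not pair the libraries by any label.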

Additional observations from a re-analysis of the deposited data

How the results depend on the processing

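The number of the 10 genes called lower ranged from 5 to 10 in MRC against PBS when 1 library was left out, from 9 to 10 in MRC+L against PBS, and stayed at 0 in MRC+L against MRC. In those fits 1878 to 3569, 2476 to 3886 and 0 to 46 of all genes were called lower. Other scalings, no filter, DESeq2, limma voom with weights per group, the replicate block and the length trend gave 9 to 10, 10 and 0. There 2104 to 3109 of all genes were called lower in MRC, and 2753 to 3667 in MRC+L against PBS. Over single genes and alternatives, 151 of the values in MRC against PBS kept direction and call and 19 lost the call; in MRC+L against PBS these were 168 and 2. With the replicate block 9 of 10 were called lower in MRC, where 2224 of 13439 genes were. S100a16 was lost (adjusted p = 0.0651 by edgeR). Same-numbered libraries of different groups correlated at -0.185 to 0.0385 in their deviations, so the numbers were not taken as pairs. Under the block the other HMG genes that fell in MRC+L numbered 6, and the receptor genes that rose 1 in MRC and 2 in MRC+L. Of all genes, 2860 were called lower in MRC+L under it, 2059 higher in MRC and 2630 higher in MRC+L.

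Values near 0 changed sign, and the cause was not tested. With 1 library left out, MRC+L against MRC ranged from -0.343 to 0.0319 for S100a13 and from -0.0387 to 0.0693 for Lgals3, and MRC+L against PBS from -0.0181 to 0.196 for Havcr2. Lgals3 was at -0.0187 without a filter and at -0.0022 with the replicate block. Ager in MRC against PBS ranged from -0.866 to 0.0545, and was at 0.0673 with the length trend removed and PBS replicate 2 left out. Tlr4 ranged from -0.44 to 0.10 in MRC and from -0.27 to 0.27 in MRC+L against PBS. In the latter it was at 0.0052 with DESeq2 size factors, 0.0056 with DESeq2, 0.0660 with limma voom and 0.0400 with the replicate block. Ager passed the threshold in MRC+L against PBS (adjusted p = 0.0443 by edgeR) and Tlr4 in MRC (0.00342) in single fits with a library left out. Both were lower there, and Tlr4 was called lower in MRC in 2 of the alternatives. Depth limits S100a4 and Ager, with at most 73 counts in any library.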
